A study of Mus musculus with 9 samples.

Results

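The trypsinogen genes that lie inside the T cell receptor beta (Tcrb) locus of the mouse were examined in lung allografts, namely 1810009J06Rik, Try4, Try5, Try10, Prss3, Prss1 and Prss2. These 7 genes were taken from the series because 1810009J06Rik was among the probes with the largest rises in grafts with obliterative bronchiolitis (OB) against sham lungs, and its relatives in the locus were added by position. The values of OB against sham therefore chose the set and are given for its members as a description without a test. Each probe was assigned to a gene through its RefSeq accession. Of the 56601 probes tested, 6 belonged to the set, 1 for each gene except Try10, for which no probe was matched and no value is given.

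RNA of 9 left lungs was hybridised individually to 1-colour Agilent arrays, with 3 lungs with OB, 3 grafts without OB (non-OB) and 3 sham lungs. In both graft groups the left lung of a male C57BL/10 donor had been placed in a male C57BL/6 recipient, a minor histocompatibility mismatch. Donors and recipients were 8 to 12 weeks old. All lungs were collected at day 21, and OB and non-OB grafts had received the same operation and were separated afterwards by histology, so the groups differ by outcome and not by treatment. Sham mice, also male, had a thoracotomy only. The labels give the same donor and recipient strains to all 9 lungs, whereas the study's own sample names place sham 1 in C57BL/10 and sham 2 and sham 3 in C57BL/6. Whole lung holds graft tissue and infiltrating recipient cells together, and the arrays do not separate donor from recipient RNA.

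Trypsinogens are the inactive precursors of trypsin, the digestive protease that the acinar cells of the pancreas secrete. Enteropeptidase cuts them to active trypsin in the gut, cathepsin B can do so inside cells, and inhibitors such as Spink1 hold trypsin in check. In mouse and in human, several trypsinogen genes sit between the gene segments of the Tcrb locus, which T cells rearrange to make their antigen receptor, so that a digestive gene family and an immune receptor share one stretch of chromosome.

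In RefSeq order the trypsinogens form 2 clusters. 1810009J06Rik lies in the first cluster, between Trbv1 and Trbv2, together with Prss58, 1700074P13Rik, Gm2663 and 2210010C04Rik. Try4, Try5, Try10, Prss3, Prss1 and Prss2 lie in the second cluster, after all variable segments except Trbv31 and before the diversity, joining and constant segments Trbc1 and Trbc2.

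Upstream sequence from the RefSeq table (build GRCm38.p6, chromosome 6) was available for 4 of the 7 genes, Try4, Prss3, Prss1 and Prss2. The 190 bases before the annotated start are shown for these genes. Each holds a match to TATAAA and to the E box CACCTG, while the probes of these genes were at background in nearly every lung. Capitals mark matches to TATAAA, the TATA box, and to CACCTG, an E box bound by the acinar factor PTF1 among other factors, on either strand.
Try4 (chr6:41302082-41302271, plus strand): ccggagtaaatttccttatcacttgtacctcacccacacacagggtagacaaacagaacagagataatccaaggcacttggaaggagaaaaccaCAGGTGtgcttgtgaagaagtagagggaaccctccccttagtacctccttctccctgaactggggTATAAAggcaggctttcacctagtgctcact
Prss3 (chr6:41377614-41377803, minus strand): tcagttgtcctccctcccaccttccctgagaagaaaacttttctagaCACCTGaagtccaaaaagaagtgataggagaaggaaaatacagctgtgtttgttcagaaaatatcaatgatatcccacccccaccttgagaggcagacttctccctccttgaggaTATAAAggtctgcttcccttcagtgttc
Prss1 (chr6:41458740-41458929, plus strand): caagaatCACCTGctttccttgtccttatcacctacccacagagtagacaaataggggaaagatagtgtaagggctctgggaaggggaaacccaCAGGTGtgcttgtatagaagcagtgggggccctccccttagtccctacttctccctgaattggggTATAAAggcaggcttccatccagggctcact
Prss2 (chr6:41521586-41521775, plus strand): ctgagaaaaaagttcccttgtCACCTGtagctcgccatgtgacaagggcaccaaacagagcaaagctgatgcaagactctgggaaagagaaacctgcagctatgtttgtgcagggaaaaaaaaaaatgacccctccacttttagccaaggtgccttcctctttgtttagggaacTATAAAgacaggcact

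TATAAA was found on either strand within the 250 bases before the start of 4 of 4 genes, against 12.4% of the 32851 promoters in the table. Its first base lay 31 bases before the start in Try4 and in Prss1, 28 bases in Prss3 and 16 bases in Prss2. CACCTG was found in 4 of 4 genes, against 17.2% of all promoters, with its nearest match 96 bases before the start in Try4 and in Prss1, 143 bases in Prss3 and 169 bases in Prss2. GGAAAN, the core of NFAT sites, was also in 4 of 4 genes but is common, with 55.5% of all promoters. TGTGGT, the core of RUNX sites, was in 1 of 4, Try4, where it shares 2 bases with the E box, against 14.0% of all promoters. The 4 genes are close relatives, so their matches are not independent of each other. For 1810009J06Rik no upstream sequence was available, so its motifs are not known here. These matches describe letters in a window and carry no evidence that a factor binds there.

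1810009J06Rik (RefSeq NM_023707), a protein-coding gene of the trypsinogen family still known by its RIKEN clone name, was measured in every graft and in no sham lung. Values are log2 of the scanner signal after each array was scaled to a common trimmed mean of 2500. The log2 signal was 9.32, 8.36 and 9.92 in OB 1, 2 and 3, and 10.91, 10.07 and 10.01 in non-OB 1, 2 and 3. In sham 1, 2 and 3 it was 2.00, 1.89 and 1.94. On the linear scale the grafts lay between 329 and 1920 and the sham lungs between 3.71 and 3.99, and the scanner software marked the probe as well above background on 6 of 6 graft arrays and on 0 of 3 sham arrays. The C57BL/10 and the C57BL/6 sham lungs were both at background, so the transcript was not detected in sham lung of the donor strain or of the recipient strain. In whole tissue, fewer cells that carry a transcript and less of it per cell cannot be told apart.

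**Figure D1:**
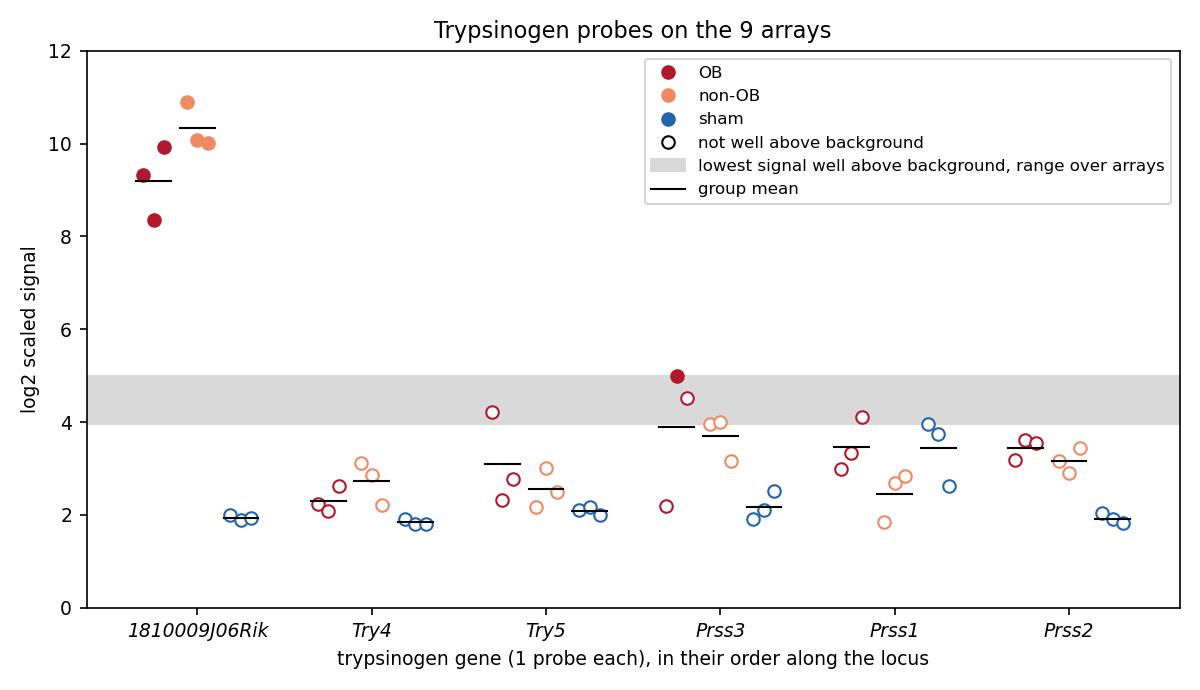
Log2 scaled signal (y axis) of the 6 trypsinogen probes (x axis, in chromosome order) on the 9 arrays, with 1 point per lung and a bar at each group mean; open points were not well above background, and the grey band spans the lowest signal well above background on each array, 3.96 to 4.99. The 6 graft points of 1810009J06Rik lie between 8.36 and 10.91 and are filled, and among the other probes only Prss3 in OB 2 is filled.

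The mean log2 signal of 1810009J06Rik was 9.20 ± 0.79 in OB, 10.33 ± 0.50 in non-OB and 1.94 ± 0.05 in sham (SD, n = 3 each). Because sham lay below background, only a lower bound of the fold is given. It sets the mean of the grafts against the mean, over the sham arrays, of the dimmest probe counted as well above background there. Some probes brighter than this floor were still not marked, such as Trbv15 in sham 1 at 4.39 against 4.17. This bound, like each at-least fold given below, is therefore approximate. By this bound the gene was at least 35.6-fold higher in OB than in sham, with a fitted log2 difference of 7.26 (SE 0.40). It was at least 77.7-fold higher in non-OB than in sham, with a fitted log2 difference of 8.39 (SE 0.40; limma, adjusted p = 0.000302), a comparison that uses the same 3 sham arrays as the one that chose the gene. Non-OB grafts did not enter that choice.

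The size of the fitted difference, though not its direction, rested on how signals below background were treated. With a background correction that lifts dim spots (normexp with quantile normalization), the log2 difference was 2.79 for OB and 3.75 for non-OB against sham. Both are smaller, on the same scale, than the bounds above. With the slide as a block the difference of non-OB against sham was 8.73 with adjusted p = 0.0776, in a fit that called 0 of 56601 probes. The only slide that held all groups had log2 signals of 9.32 in OB 1, 10.91 in non-OB 1, and 2.00 and 1.89 in sham 1 and sham 2.

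Between the graft groups, every OB graft was below every non-OB graft. The difference was -1.13 on the log2 scale (SE 0.40), which is 2.18-fold lower in OB with a 95% interval from 1.14-fold to 4.16-fold in the limma fit. It had an unadjusted p of 0.0236 and an adjusted p of 1 over all probes (limma), so it did not pass the threshold. The exact two-sided permutation test over the 6 grafts gave p = 0.1, which is the smallest p that 3 against 3 allows. Of all probes, 2.86% had every OB graft below every non-OB graft and 1.09% had the opposite. Each of 3 slides held 1 graft of either group, and within them OB minus non-OB was -1.58, -1.65 and -0.15, so the difference was close to 0 on the slide of OB 3 and non-OB 2. Without OB 2 the difference was -0.71, and without OB 3 it was -1.49.

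The other members were below background, apart from Prss3 in OB 2. Try4 (NM_011646) had log2 signals of 2.23, 2.08 and 2.62 in OB, 3.13, 2.85 and 2.22 in non-OB, and 1.91, 1.80 and 1.81 in sham. Try5 (NM_001003405) had 4.21, 2.31 and 2.78 in OB, 3.01 at the highest in non-OB and 2.17 at the highest in sham. Neither was well above background on any array, and the OB and non-OB values of both overlapped.

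Prss3 (NM_011645) had log2 signals of 2.20, 5.0 and 4.51 in OB, 3.95, 4.0 and 3.17 in non-OB, and 1.91, 2.10 and 2.51 in sham. It was well above background on 1 of 9 arrays, OB 2. Its OB and non-OB values overlapped, and non-OB minus sham was 1.54 (SE 0.66; limma, adjusted p = 0.29).

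Prss1 (NM_053243) had log2 signals of 2.98, 3.32 and 4.11 in OB, 1.86, 2.69 and 2.83 in non-OB, and 3.96, 3.75 and 2.63 in sham. It was well above background on no array, and its means in OB and sham, 3.47 ± 0.58 and 3.45 ± 0.72 (SD, n = 3), were close together. Every OB graft was above every non-OB graft, by 1.01 on average (SE 0.45; limma, adjusted p = 1), all of it below background.

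Prss2 (NM_009430), an anionic trypsinogen, had log2 signals of 3.18, 3.61 and 3.55 in OB, 3.17, 2.91 and 3.43 in non-OB, and 2.03, 1.92 and 1.82 in sham. All 9 values were below background, so no fold is given. Every graft value lay above every sham value, as for 20.0% of all probes in OB and 16.3% in non-OB, and non-OB minus sham was 1.25 (SE 0.21; limma, adjusted p = 0.0232). Below background, group means were generally higher in grafts than in sham. Of the 13444 probes that were well above background on no array, 87.2% had a higher mean in non-OB than in sham, with a median difference of 0.45. In OB, 83.7% of them had a higher mean than in sham, with a median of 0.42. Of the same probes, 0.387% were called higher in non-OB, and 98.2% had a smaller non-OB minus sham difference than Prss2. The shift was not even over the graft arrays. On the slide of sham 1, the probe of 2210010C04Rik had 2.22 in OB 1, 1.94 in non-OB 1 and 1.95 in sham 1. It had 2.49 in OB 3 and 2.74 in non-OB 2, which shared a slide without a sham lung. Those 2 arrays also had the highest background floors, 4.77 and 4.99. The part of the slide in this shift, and the part of the shift in the Prss2 difference, were not tested.

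A probe was called against sham at an adjusted p under 0.05 and a difference of at least 2-fold. In OB against sham, 2 of 6 member probes met this rule with higher values, 1810009J06Rik and Prss2, where 2.72% of all probes were called higher and 2.43% lower. Since this comparison chose the set, the count is a description and nothing is read from it. In non-OB against sham the same 2 of 6 probes were called higher, where 1.81% of all probes were higher and 0.71% lower. In OB against non-OB, at an adjusted p under 0.05 with no fold limit, 0 of 6 member probes were called in limma, as were 0% of all probes, while 307 probes were higher and 795 lower at an unadjusted p under 0.05. The median log2 difference of the members was 1.27 in OB and 1.07 in non-OB against sham, beside 0.08 and 0.13 for all probes. Probes well above background on no array had medians of 0.42 and 0.45, and 4 and 5 of the 6 member probes were below background in both groups compared. The medians of the members are a description, and no rise of the set is read from them. The shares of all probes depend on single arrays: the probes called in either direction went from 2915 to 1084 in OB and from 1429 to 306 in non-OB without sham 2. Without non-OB 1, the non-OB number was 520. With the slide as a block, 4 probes were called in OB and 0 in non-OB against sham, and with the slide as a random block 4144 and 2385. Of the called members, only 1810009J06Rik was well above background on any array.

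The nearest neighbours of 1810009J06Rik in the first trypsinogen cluster were at or near background. Prss58, a trypsin-like protease, was well above background on 1 of 9 arrays, non-OB 3, with means of 2.75 ± 0.50 in OB, 3.08 ± 1.36 in non-OB and 1.80 ± 0.10 in sham. 1700074P13Rik, with 2 probes, and 2210010C04Rik were well above background on no array. No probe was matched to Gm2663, which directly adjoins 1810009J06Rik. Trypsinogen genes are close in sequence and the probe sequences were not analysed here, so signal from 1810009J06Rik and from such a relative cannot be told apart. In the second cluster, Gm5771 was at background on all arrays, and Gm10334 was well above background on all 9 with means of 5.16 ± 0.59 in OB, 5.03 ± 0.43 in non-OB and 4.94 ± 0.87 in sham (SD, n = 3). The related protease gene Prss37, which lies outside the stretch from Moxd2 to Ephb6, was measured on all 9 arrays with means of 7.67 ± 0.15 in OB, 7.89 ± 0.27 in non-OB and 7.94 ± 0.20 in sham. Of these 5 other trypsinogens and trypsin-like genes in or near the locus (2210010C04Rik, Prss58, Gm5771, Gm10334 and Prss37), 0 were called in either comparison with sham in limma.

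**Figure D2:**
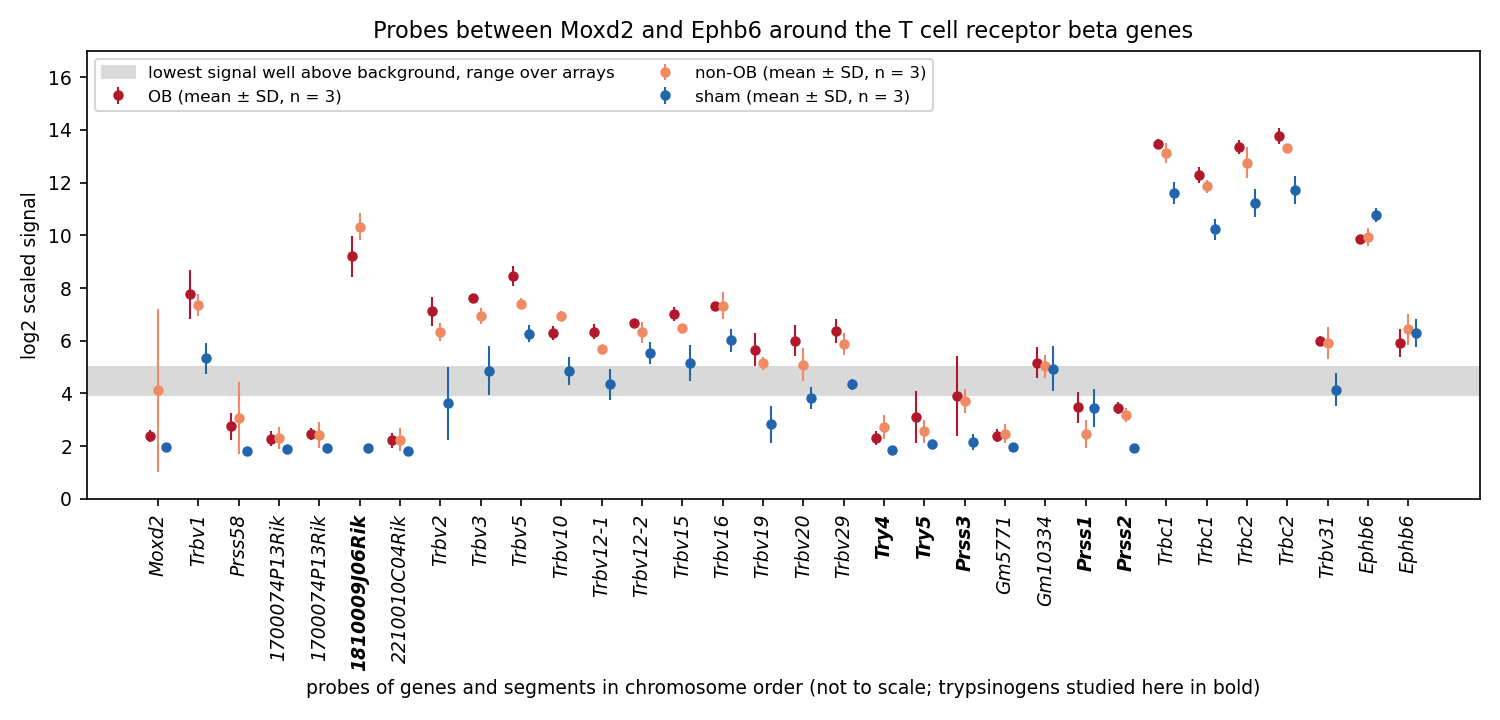
Mean log2 scaled signal ± SD (y axis, n = 3 lungs per group) of the named probes from Moxd2 to Ephb6 in chromosome order (x axis, not to scale, members in bold), with the grey band as the lowest signal well above background over the arrays. 1810009J06Rik, at 9.20 in OB, 10.33 in non-OB and 1.94 in sham, has probes at background next to it on both sides, 1700074P13Rik and 2210010C04Rik.

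Most of the receptor segments were detected in sham lungs too. Of 17 probes, 9 passed the background mark in 3 of 3 sham lungs, 5 in 2, Trbv2 and Trbv20 in 1 and Trbv19 in 0. The segment probes carry no RefSeq name and were named through the study's own gene lists, which were chosen on OB against sham or OB against non-OB in these arrays, so their direction is not independent evidence. Trbv1, on one side of 1810009J06Rik, had means of 7.76 in OB, 7.36 in non-OB and 5.34 in sham, and Trbv2, on the other side, had 7.12, 6.34 and 3.62. The constant region Trbc1 had means of 13.48, 13.12 and 11.59 for its brighter probe. Of these probes, 16 had a higher mean in OB than in non-OB, the opposite order to 1810009J06Rik.

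Of the 8 genes named as flanks of the locus, 4 were well above background on no array, and 1 was called higher in both comparisons with sham, Clec5a, a myeloid activating receptor. Its difference was 2.20 in OB (SE 0.37; limma, adjusted p = 0.0143) and 2.20 in non-OB (adjusted p = 0.0243). Moxd2, the first gene of the ordered stretch, was well above background only in non-OB 2. The receptor tyrosine kinase gene Ephb6 was measured on all 9 arrays and was not called.

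T cell genes were compared because the locus is rearranged and transcribed in T cells. Of 22 such genes, 19 were called higher in OB and 13 in non-OB against sham, with 0 lower in either, and their median difference was 2.04 in OB and 1.65 in non-OB. With the slide as a block, a fit added after seeing the data for this list, 0 of 22 were called in either comparison (limma) while 22 of 22 differences were above 0, and with the slide as a random block 19 and 16 were called. With the slide as a block, 0 genes were called in any other list compared here either. Cd3e, a subunit of the receptor complex, had means of 12.78 ± 0.22 in OB, 12.37 ± 0.27 in non-OB and 10.72 ± 0.26 in sham (SD, n = 3). All 22 were well above background in every graft. Ctla4, an inhibitory receptor of activated T cells, passed this mark in 0 of 3 sham lungs and Ubash3a, a phosphatase-like regulator of receptor signalling, in 1, and the others in all 3.

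Among the grafts, the trypsinogen and the T cell genes came in different orders. The mean log2 signal of the 22 genes was 11.01, 11.07 and 11.24 in OB 1, 2 and 3 and 10.88, 10.30 and 10.97 in non-OB 1, 2 and 3. The 3 OB grafts thus held the 3 highest T cell means and the 3 lowest signals of 1810009J06Rik. The median OB minus non-OB difference of the T cell genes was 0.36, and 0 of 22 were called between the graft groups in limma.

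**Figure D3:**
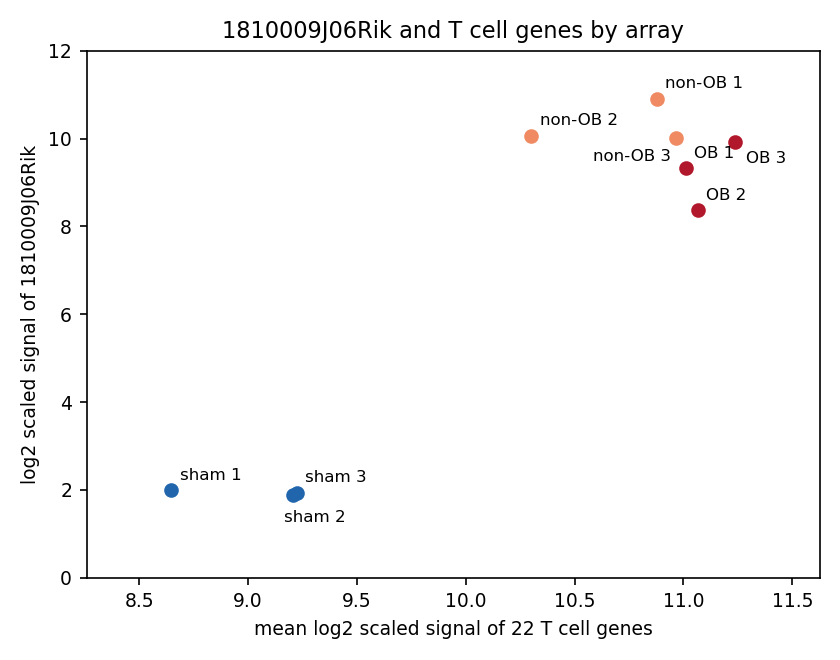
Log2 scaled signal of 1810009J06Rik (y axis) against the mean log2 scaled signal of 22 T cell genes (x axis), 1 point per lung, coloured by group. Sham lungs sit at 8.65 to 9.22 on the x axis with the trypsinogen at background, and among the grafts the OB lungs lie to the right of and below the non-OB lungs.

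Pancreatic acinar genes were compared as the tissue in which trypsinogens are normally made. Of 29 genes, 25 had a probe, and 16 of these were well above background on at least 1 array and 8 in all 6 grafts. The other 9 were well above background on no array, among them Pnlip (pancreatic lipase), Amy2b (amylase) and Ptf1a, the acinar transcription factor. Their log2 signals in the grafts stayed at 2.94 or below for Pnlip and Amy2b, and Ptf1a reached 4.21 in non-OB 3, still below background. The digestive enzyme genes Ctrb1, Ctrl and Cel and the colipase gene Clps, chosen after their values were seen, were measured on all 9 arrays, with Ctrb1 at means of 6.49 in OB, 6.62 in non-OB and 6.79 in sham, and were not called. Rbpjl, a subunit of PTF1, was measured on all 9 arrays at 12.18 ± 0.76, 12.48 ± 0.63 and 11.77 ± 0.33. Bhlha15, a transcription factor of secretory cells, had means of 8.30, 8.69 and 7.23, with differences from sham of 1.07 in OB (limma, adjusted p = 0.202) and 1.46 in non-OB (adjusted p = 0.128). Of the list, 1 gene was called higher and 3 lower in OB, 0 higher and 1 lower in non-OB, and the median difference was 0.10 and 0.31. The gene called higher in OB was Cela1, an elastase also made outside the pancreas, with means of 10.17 ± 0.13 in OB, 9.88 ± 0.14 in non-OB and 9.12 ± 0.30 in sham (difference 1.05, SE 0.20; limma, adjusted p = 0.0237). The carboxypeptidase gene Cpb1 was lower in OB, with a difference of -2.44 (SE 0.55; limma, adjusted p = 0.04). The carboxypeptidase gene Cpa1 was also called lower, and its only array well above background was sham 2. The lipase-related gene Pnliprp1 had log2 signals of 5.22, 5.82 and 5.65 in sham, was measured in no OB graft and was at least 2.13-fold lower in OB (limma, adjusted p = 0.0408). Gp2, a zymogen granule protein also found on M cells of mucosal epithelium, had means of 10.62 ± 0.37, 8.45 ± 1.65 and 6.05 ± 2.89 and was not called. Of the 9 acinar marker genes, 8 had a probe and 0 were called higher in either graft group. All 6 lung markers were well above background in every graft and 0 were called. They were not all level, though: Scgb1a1 was at 14.20 in OB 2 and at 17.91 or more on every other array. For Ager and Cldn18, every graft lay below every sham lung. Of the 6, 2 had a higher mean in OB than in sham, and 3 had a higher mean in non-OB than in sham.

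The genes that act on trypsinogen or respond to trypsin mostly did not pass the test against sham. Of the activators, Tmprss15, which encodes enteropeptidase, was well above background on no array. Ctsb (cathepsin B) was 16.38 ± 0.01 in OB, 16.04 ± 0.11 in non-OB and 15.29 ± 0.08 in sham, and was called higher in OB (difference 1.09, SE 0.15; limma, adjusted p = 0.00767). In non-OB its difference of 0.75 had an adjusted p of 0.046 and fell short of 2-fold. Ctsl (cathepsin L) differed from sham by -0.02 in OB and was not called.

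Of 17 inhibitors of trypsin and related proteases, 2 were called higher in both graft groups, 2 members of the alpha-1-antitrypsin family. Serpina1a had means of 7.62 ± 1.10 in OB, 7.91 ± 0.58 in non-OB and 4.42 ± 0.32 in sham, a difference of 3.20 in OB (SE 0.54; limma, adjusted p = 0.0145) and 3.49 in non-OB (adjusted p = 0.0184). Serpina1c was not well above background in any sham lung and was at least 9.83-fold higher in OB (limma, adjusted p = 0.0114) and at least 13.0-fold higher in non-OB (adjusted p = 0.0143). The other members Serpina1b, Serpina1d and Serpina1e were not called in either comparison. Serpina1b was lower in the grafts, by -1.07 in OB and -0.84 in non-OB, while Serpina1d and Serpina1e had higher means in both graft groups. The members of this family are nearly identical in sequence, so their probes may share signal. Spink1, the pancreatic trypsin inhibitor, had a difference of -0.42 in OB (SE 0.78; limma, adjusted p = 0.783) with single lungs between 3.46 and 6.86.

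Of the 4 protease-activated receptors, which trypsin or thrombin switches on by cutting them, 0 were called in limma. F2rl1, a receptor that trypsin cuts, had means of 5.48 ± 0.46 in OB, 5.41 ± 0.14 in non-OB and 5.83 ± 0.36 in sham. The thrombin receptor F2r had 13.49 ± 0.17, 13.81 ± 0.17 and 14.28 ± 0.38 (OB minus sham -0.78, limma, adjusted p = 0.0994), F2rl2 had 8.05, 8.16 and 7.94, and F2rl3 was at background.

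Of 29 other serine proteases with a probe, most are trypsin-like. In OB, 3 of the 29 were called higher and 3 lower, and in non-OB 1 higher and 1 lower. The 1 called higher in non-OB was Prss16, which is not trypsin-like and is also counted with thymic epithelium below. Gzmk (granzyme K of lymphocytes) had log2 signals of 9.15, 8.03 and 8.45 in OB, 8.01, 5.37 and 6.44 in non-OB, and 2.12, 5.23 and 1.98 in sham, and was higher in OB by 5.43 (SE 0.96; limma, adjusted p = 0.0173). Of the sham lungs only sham 2 was well above background for it, so the size of this difference includes values below background. Gzma (granzyme A) was lower, with a difference of -1.47 in OB (SE 0.21; limma, adjusted p = 0.0078) and -1.10 in non-OB (adjusted p = 0.0359). The others called in OB were F10 (coagulation factor X), at 1.57, and Prss16, at least 2.63-fold, both higher, and Prss12 (neurotrypsin), at -2.22, and Tmprss13, at -1.64, both lower. These proteases lie outside the Tcrb locus.

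**Figure D4:**
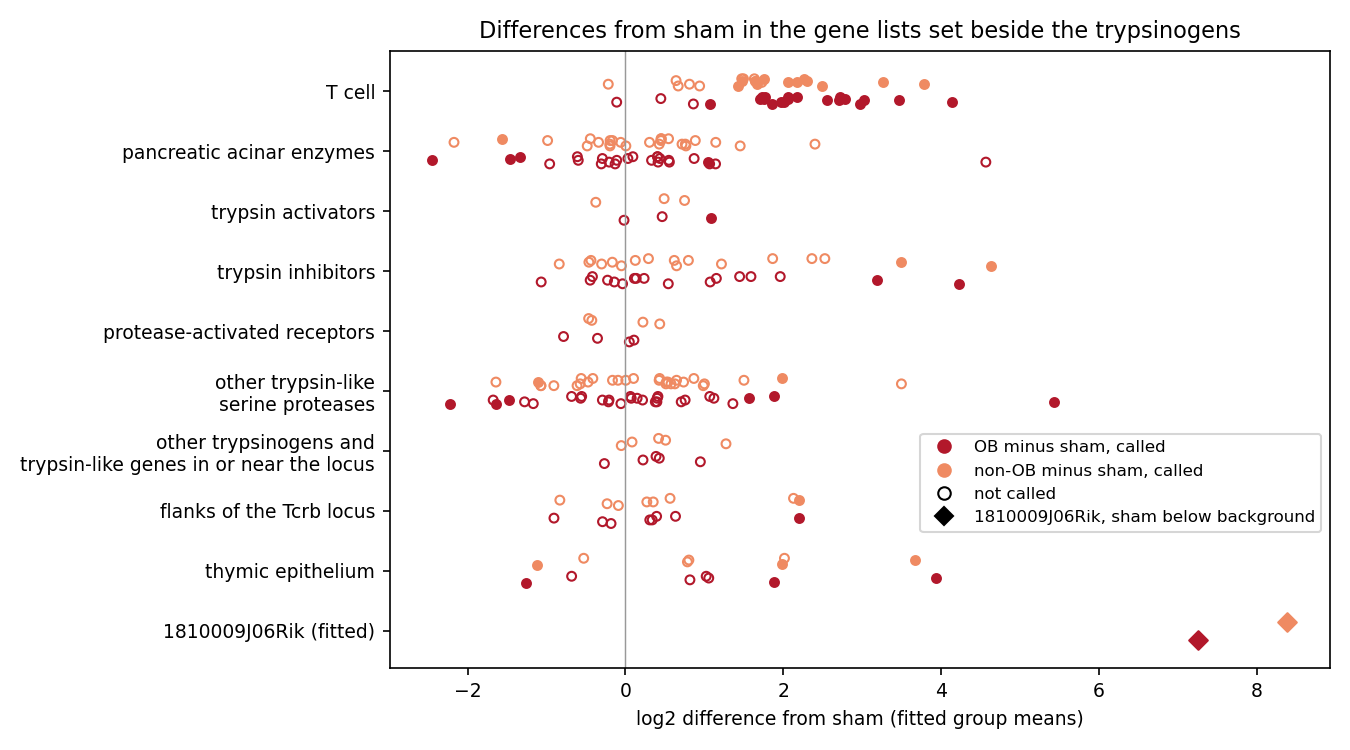
Fitted log2 difference from sham (x axis) of each gene in the lists set beside the trypsinogens (y axis), for OB and for non-OB; filled points were called at an adjusted p under 0.05 and at least 2-fold, and diamonds show 1810009J06Rik, whose sham level was below background. The T cell genes centre on 2.04 in OB and 1.65 in non-OB, the acinar genes centre on 0.10 and 0.31, and 1810009J06Rik lies at 7.26 and 8.39.

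Genes of thymic epithelium were included because this tissue makes pancreatic and other tissue-restricted transcripts under Aire. Of 7 genes, 2 were called higher and 1 lower in both graft groups. Aire had log2 signals of 5.84, 7.47 and 6.88 in OB, 6.11, 5.18 and 8.06 in non-OB and at most 2.98 in sham, where it was not well above background. Against sham it was higher in OB by at least 6.42-fold (limma, adjusted p = 0.0184) and at least 5.29-fold higher in non-OB (adjusted p = 0.0383). Prss16, a protease of thymic cortical epithelium, was the other gene called higher, and Tbata was lower, with a difference of -1.26 in OB (limma, adjusted p = 0.0174) and -1.12 in non-OB (adjusted p = 0.0421). The defining genes of thymic epithelium were near background, with Psmb11 well above background on no array and Foxn1 well above background only in non-OB 3, at 7.04. Among the grafts, Aire was highest in non-OB 3 and 1810009J06Rik in non-OB 1.

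The pattern of 1810009J06Rik, measured in all grafts and in no sham lung, was uncommon. It was shared by 86 of the 56601 probes (0.152%), of which 62 carried a RefSeq name, for 60 genes, while 30208 probes were measured on all 9 arrays. This pattern is close to the one that chose the gene and is a description. The profile over the 9 arrays was then set against 14891 other genes measured in all grafts, each centred on its own mean, by the root mean square difference on the log2 scale. The smallest differences were those of Lbhd2 at 0.886, Ccl20 at 0.901, Ccl1 at 0.902, Cxcl9 at 0.968 and Plekhs1 at 1.16, with a median of 3.82 over all genes compared.

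Ccl20, Ccl1 and Cxcl9 encode chemokines that attract lymphocytes. Ccl20 had log2 signals of 10.49, 11.29 and 12.96 in OB, 11.76, 12.40 and 11.74 in non-OB, and 3.42, 5.47 and 4.82 in sham. Ccl1 had 9.81, 10.05 and 10.24 in OB, 10.42, 9.41 and 10.73 in non-OB, and 1.93, 4.19 and 2.51 in sham. Cxcl9, which interferon gamma induces, had 14.01, 14.04 and 13.52 in OB, 14.10, 12.68 and 12.91 in non-OB, and 4.96, 4.74 and 4.88 in sham. Like the trypsinogen, these genes were high in all 6 grafts and low in all 3 sham lungs, which is what dominates the measure. Between the graft groups they differed in order: OB minus non-OB was -0.59 for Lbhd2, -0.38 for Ccl20, -0.16 for Ccl1 and -0.19 for Plekhs1 but 0.63 for Cxcl9, each with an adjusted p of 1 in limma.

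**Figure D5:**
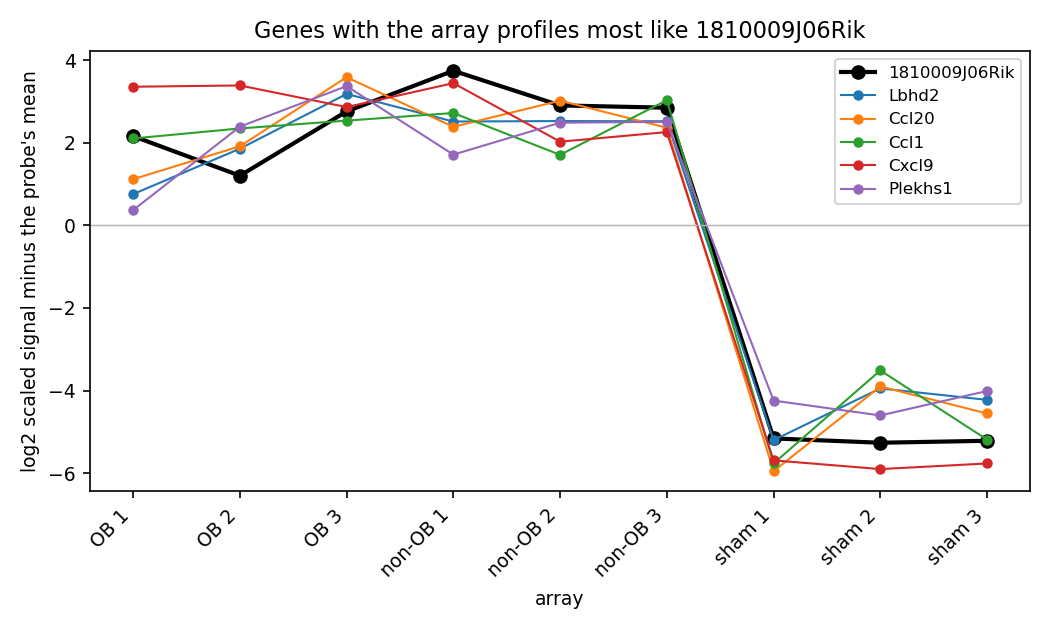
Log2 scaled signal minus each probe's own mean (y axis) on the 9 arrays (x axis) for 1810009J06Rik, in black, and the 5 genes with the most similar profile. All 6 lines are above 0 in every graft and below 0 in every sham lung, and 1810009J06Rik is lowest among the grafts in OB 2.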

How the data were processed

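RNA of 9 left lungs (3 OB, 3 non-OB, 3 sham, each from an individual mouse) was measured on 1-colour Agilent arrays. The authors extracted background-subtracted, spatially detrended signals with Agilent Feature Extraction 12.0.3.1 and deposited the intensity of each spot. Here each array was scaled to a trimmed mean of 2500 (2% removed at each end), as the methods describe, which gave the deposited value table within a relative difference of 5e-10. Control spots and outlier spots (53 to 111 per array) were left out, signals were log2-transformed, and probes printed more than once were averaged. Between 58.6% and 69.6% of probes were well above background on an array and 0 spots were saturated; the number of arrays limits the precision.

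Groups came from the sample labels. The test was limma 3.58.1 in R 4.3.3 with 1 mean per group on all 9 arrays, adjusted by Benjamini-Hochberg over 56601 probes. It was tested on simulated data that held no slide effect, so that check does not cover the slides. Genes were named through RefSeq accessions (32991 probes, 22909 genes), and gene order came from the GRCm38.p6 table. The members and lists were chosen with earlier results of these data known. All members were named, then the 5 genes with the most similar profile, and in each list the called genes with the largest change in OB (up to 3), its defining genes and the flanks of the locus. Same-numbered arrays of different groups did not deviate together (correlations from -0.40 to 0.28), so numbers were not used as pairs. The arrays came from 4 slides, and the consensus correlation within a slide was 0.46. Slide and group were partly confounded: OB 1, non-OB 1, sham 1 and sham 2 shared a slide, and sham 3 was alone on another. OB 2 was with non-OB 3 and OB 3 with non-OB 2, without a sham lung. Only the slide of OB 1 thus allows grafts and sham lungs to be compared within a slide. The alternatives were other scalings, filters, blocks, sham strains, the methods' t-test and leaving out each array. The authors' lists of changed transcripts were used only to name receptor segments.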

Additional observations from a re-analysis of the deposited data

How the results depend on the processing

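For 1810009J06Rik, OB minus sham was between 2.79 and 7.68 on the log2 scale over 22 alternatives, and it was 2.79 under normexp with quantile normalization, which adds an offset to dim spots and so raises the sham level. Non-OB minus sham lost its call in 3 of 22 alternatives, at 8.39 with the methods' t-test (adjusted p = 0.0626), 8.73 with the slide as a block (0.0776) and 8.33 against the C57BL/10 sham lung alone (0.0544), where fewer sham arrays or degrees of freedom enter the fit. Its other adjusted p-values were between 0.000129 and 0.00507. It was 3.75 under normexp with quantile normalization, still called, and kept its call without any 1 array (8.10 to 8.54). OB minus non-OB stayed negative and uncalled in 20 of 20 alternatives, between -1.49 and -0.71. With replicate number as a block, OB minus sham, non-OB minus sham and OB minus non-OB had the values 7.26, 8.39 and -1.13.

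Of the 6 member probes, those called in OB against sham went from 2 to 1 with normexp, with the filter on dim probes and with the C57BL/10 sham lung alone, and to 0 with the slide as a block. Without 1 array the count was 2 to 3. In non-OB against sham the count went from 2 to 1 with quantile normalization, normexp, the filter on dim probes, only the 2 groups compared, the replicate block or the C57BL/6 sham lungs alone. It went to 0 with the t-test, the slide as a block and the C57BL/10 sham lung alone, and was 1 to 2 without 1 array. In OB against non-OB it was 0 throughout. Of all probes, 1429 were called in non-OB against sham, 711 with the replicate block, 0 with the t-test and 306 to 1323 without 1 array. In OB against sham they were 2915, 1094 with the t-test and 1084 to 2886 without 1 array.

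With 3 lungs a group, differences near the spread between lungs cannot be resolved, and signals below background give no fold.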

Other observations

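Single lungs stood apart for other genes near the trypsinogens. Moxd2, a monooxygenase-like gene at the edge of the locus, had a log2 signal of 7.69 in non-OB 2 and at most 2.62 on the other 8 arrays. Foxn1, the transcription factor of thymic epithelium, had 7.04 in non-OB 3 and at most 3.30 elsewhere, and the same lung had the highest Aire, at 8.06, and was the only one with Prss58 well above background, at 4.58. In that lung 1810009J06Rik was at 10.01, the lowest of the non-OB grafts. These lungs were picked out after their values were seen, and no test was made.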
